A study of Mus musculus with 4 samples.

Results

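The mitochondrial ribosomal proteins are nuclear-encoded components of the ribosome that works inside mitochondria. Here they are the 78 genes whose symbol begins with Mrpl or Mrps and a number, 49 named for the large subunit (Mrpl) and 29 for the small subunit (Mrps), of 50600 genes counted. Another 5 genes with such symbols carry the pseudogene mark -ps and were left out by the same rule. The members were chosen by a rule on their names that uses no levels, though with earlier results of these data known. They were described in 4 RNA-seq libraries of regulatory T cells, the CD4+ lymphocytes that depend on the transcription factor Foxp3 and restrain immune responses.

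All 4 libraries form 1 group of primary cells from the mouse strain C57BL/6NJ, without a stated genotype change or treatment and without another cell type beside them. Per the labels, the 4 biosamples share 1 donor record, the sex was not collected and the age is unknown. The assay is titled total RNA-seq, while the linked library protocol carries PolyA+ in its name. A differentiation protocol for CD4+ T cells is linked, and the names of the aligned files carry the words activated and 48h, and the labels do not say which step those words refer to. Nothing says whether the biosamples came from separate animals or cultures, so the p-values given here reflect sample-to-sample spread alone, part of which may be technical. The library totals were 43821767, 58696937, 73819468 and 52005209 counts in replicates 1 to 4, of which 0.419 ± 0.00924% (SD, n = 4) fell on the members. Levels are in TPM, the count divided by the exon length of the gene and scaled to 1000000 per library, as mean ± SD of the 4 libraries. The labelled cell type was checked against its markers. All 6 regulatory T genes looked at were expressed, including Foxp3 at 289 ± 23.5 TPM and Il2ra, the high-affinity interleukin 2 receptor chain, at 1488 ± 19.4 TPM. Cd8a stood at 0.187 TPM on average, the 4 B cell, 3 erythroid and 2 stromal or epithelial markers all missed the expression threshold, and the 3 granulocyte markers had no counts. Of 4 macrophage and dendritic markers 1 passed, and the 4 summed to between 1.06 and 1.84 TPM per library.

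The mitochondrial ribosome translates the few messenger RNAs of the mitochondrial genome, all of which encode membrane subunits of the respiratory chain and of ATP synthase. Its ribosomal RNAs are mitochondrial transcripts, whereas its proteins are made in the cytosol and imported. The small subunit holds the messenger RNA and the decoding site, and the large subunit holds the peptidyl transferase center and an exit tunnel that faces the inner membrane. Many of its proteins have counterparts in bacterial ribosomes, from which the organelle's ribosome descends, and others exist only in mitochondria. T cells enlarge their mitochondria and raise mitochondrial translation when they are activated.

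Nearly every member was transcribed. Of the 78 members, 77 had 1 TPM or more in each of the 4 libraries, which is what expressed means here, and 76 had 10 TPM or more. A TPM of 100 was exceeded in all 4 libraries by 31 members, 20 of the large and 11 of the small subunit. The median member stood at 77.9 TPM, beside 28.6 TPM for all 11593 expressed genes and 33.7 TPM for the 10274 of them that encode proteins. The 85 protein-coding genes named for cytosolic ribosomal proteins (Rpl, Rps or Rplp and a number) had a median of 874 TPM. Of these 82 were expressed, and the names were not checked against the ribosome itself. Together the members summed to 7446 ± 101 TPM (n = 4), or 0.745 ± 0.0101% of all TPM.

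**Figure D1:**
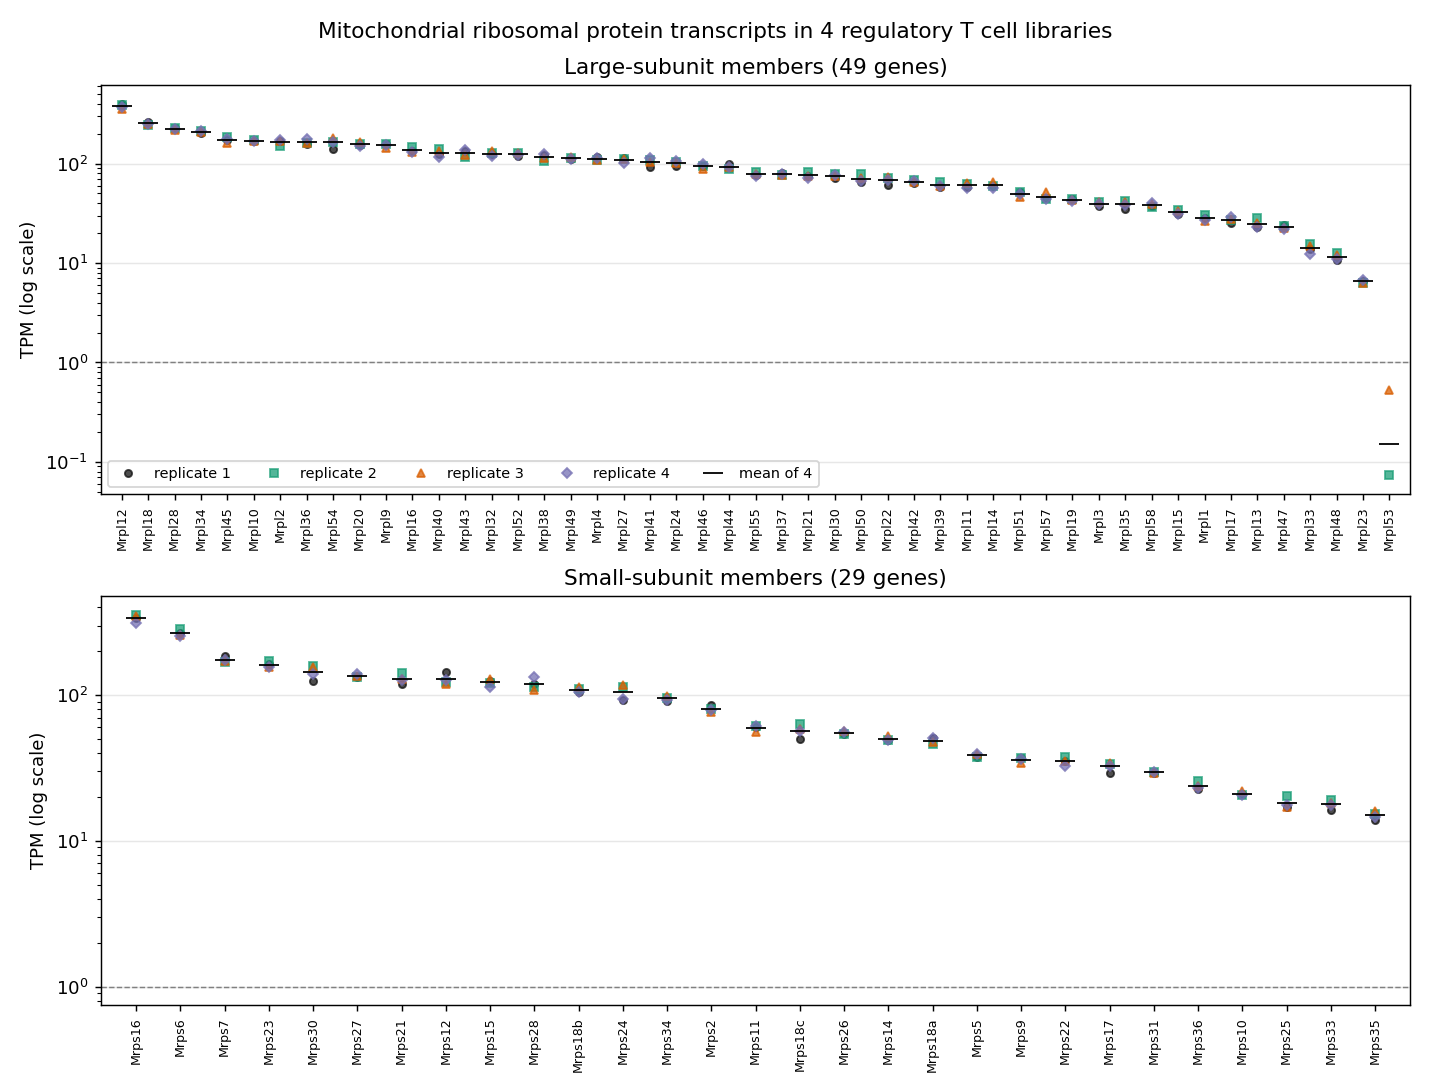
Level of each member in TPM on a log scale, large subunit above and small subunit below, ordered by the mean. Points are the 4 replicates, short bars their mean, and the dashed line a TPM of 1. Mrpl53 lies below the line, where its zero values in 2 libraries are not drawn, and the points of the other members stay close together at any level.

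The stalk protein Mrpl12 led the large subunit. Mrpl12 (ENSMUSG00000039640.7, chromosome 11, 120484613 to 120489065 of mm10) is the counterpart of bacterial L7/L12, which recruits translation factors, and it also binds the mitochondrial RNA polymerase. It stood at 401, 383, 354 and 374 TPM in replicates 1 to 4. Replicate 3 was its lowest library and overlapped in level with Mrps16, the member next in order. Mrpl10, which anchors the stalk, was lower at 168, 173, 167 and 169 TPM, with the libraries nearly equal.

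Mrps16, a small-subunit protein with a bacterial counterpart (ENSMUSG00000049960.3, chromosome 14, 20391231 to 20393555), stood at 338, 356, 349 and 311 TPM. Replicate 4 was the lowest of the 4. Its exon length of 566 bases is the shortest among the members, a point taken up below. Mrps6, likewise of bacterial descent, followed at 267, 285, 259 and 253 TPM.

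Below Mrpl12, the large-subunit members with the highest levels were Mrpl18 at 253 ± 6.66 TPM, Mrpl28 at 224 ± 4.76 and Mrpl34 at 209 ± 4.86, all 3 named for bacterial counterparts. Mrpl45, which binds the inner membrane beside the exit tunnel and has no bacterial ribosomal counterpart, stood at 173 ± 9.53 TPM. Mrpl2, a core protein of the large subunit near its catalytic center, stood at 164 ± 10.6 TPM, Mrpl36 at 163 ± 7.65, Mrpl54 at 163 ± 17.3 and Mrpl20 at 156 ± 5.93. In the small subunit Mrps7, a protein of the head, followed at 175 ± 7.74 TPM, and Mrps23, found only in mitochondria, at 162 ± 7.88. Mrps30 stood at 144 ± 15.3 TPM and the pentatricopeptide repeat protein Mrps27 at 135 ± 3.39. Mrps21 stood at 129 ± 9.05 TPM, Mrps12 at 128 ± 10.9, Mrps15 at 122 ± 6.12 and Mrps28 at 118 ± 10.4. Mrps12 is the counterpart of bacterial S12 at the decoding center. From Mrps21 to Mrps28 neighbours in this order differed by less than the larger SD of the pair.

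The lowest expressed members were also measured in every library. Mrpl23, a protein at the exit of the tunnel (ENSMUSG00000037772.13, chromosome 7, 142532686 to 142540747), stood at 6.60, 6.34, 6.32 and 6.80 TPM, and was the only expressed member below 10. Mrpl48 followed at 11.6 ± 0.895 TPM, Mrpl33 at 14.1 ± 1.46 and Mrpl47, the counterpart of bacterial L29, at 23.1 ± 1.10. In the small subunit the lowest were Mrps35 at 14.9 ± 0.961 TPM, Mrps33 at 17.9 ± 1.16, Mrps25 at 18.02 ± 1.51, Mrps10 at 21.0 ± 0.626 and Mrps36 at 23.9 ± 1.44. From lowest to highest expressed member the mean spanned 58.0-fold in TPM and 19.4-fold in CPM, counts scaled to a library total of 1000000 without division by length.

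Only Mrpl53 missed the threshold, with 0, 1, 9 and 0 counts in replicates 1 to 4, or 0, 0.0734, 0.526 and 0 TPM. A count of 0 allows up to 3 counts, equal to at most 0.301 TPM for this gene. This floor covers counting error only. Mrpl53 (ENSMUSG00000030037.9, chromosome 6, 83109040 to 83109939) shares 88.0% of its exon bases with Gm42688 on the same strand, and every run of 50 bases of its longest coding transcript also occurs in a transcript of Gm42688. Counts in exons shared by genes can be assigned to neither under the deposited settings, so the level of Mrpl53 cannot be read from these files. In 70 members no exon base lay in an exon of a same-strand gene, and in 5 members more than 10% did. Those were Mrpl53 in the large subunit and, in the small subunit, Mrps34 (37.0%, Nme3), Mrps18c (23.2%, Gm43511), Mrps24 (15.4%, Urgcp) and Mrps6 (15.1%, Slc5a3). Runs of 50 bases shared with transcripts of other genes touched more members. Looked for on both strands, they made up more than 10% of the longest coding transcript in 29 members and more than 50% in 5, of which Mrpl53 was one. Mrps25 shared 73.9% of its runs with Nr2c2 and Mrps34 52.4% with Mapk8ip3. Neither partner shared a same-strand exon base with its member. Mrpl23 shared 66.7% of its runs of 50 bases with the pseudogene Mrpl23-ps1, which itself held 34 to 49 counts per library. Mrps18b shared 63.7%, most of it with Gm16279. The levels of such members are uncertain where fragments align to several places, whereas overlap on the opposite strand alone is kept apart by the stranded counting.

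Large-subunit members had the higher median in TPM, but the sign of that difference depended on the length used. In each library the median of log2(TPM + 1) over the 49 large-subunit members was set against that over the 29 small-subunit members. The difference, large minus small, was 0.41, 0.39, 0.43 and 0.35 in replicates 1 to 4, a mean of 0.39 ± 0.04 (SD, n = 4), and was above 0 in 4 of 4 libraries. On the TPM scale the medians were 78.1 for the large and 59.6 for the small subunit. The sums were 4804 ± 45.9 TPM over the large and 2642 ± 59.2 TPM over the small subunit, a ratio of 1.82, 1.79, 1.81 and 1.86 in replicates 1 to 4. The large subunit also has more members, so this ratio says nothing of levels per protein. With the mean of log2(TPM + 1) in place of the median the difference shrank to 0.08. Divided by the length of 1 coding transcript in place of all exons, the difference was -0.01 and above 0 in 1 of 4 libraries. Without division by length, in CPM, it was -0.17 and above 0 in none. The medians of the members' mean levels were then 44.7 CPM for the large and 52.2 CPM for the small subunit. On the coding-transcript length they were 119 and 118. These 2 values were not scaled again to a fixed total per library, so they are not TPM. The difference of -0.01 was taken within each library instead, so its sign need not match theirs. The direction therefore held in TPM and in FPKM, which divides by exon length and library total (0.38), but not on the other length scales.

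**Figure D2:**
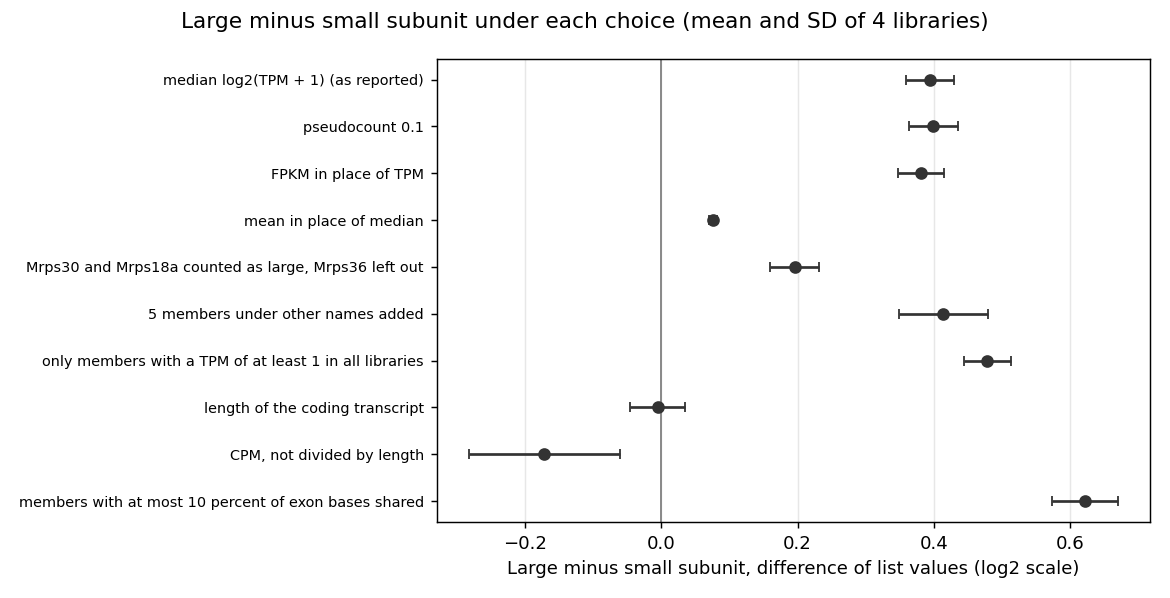
Difference between the large-subunit and the small-subunit members on the log2 scale, one row per choice of scale or members. Points are the mean of 4 libraries and bars their SD, and the vertical line marks no difference. The value of 0.39 on the median of log2(TPM + 1) falls to -0.01 with the coding-transcript length and to -0.17 in CPM.

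Names and structural places do not always match, and this moved the comparison too. Mrps30 and Mrps18a carry small-subunit names but sit in the large subunit, and Mrps36 is a component of the 2-oxoglutarate dehydrogenase complex. Mrps30 stood at 125, 158, 156 and 140.0 TPM in replicates 1 to 4. Mrps36 stood at 22.6, 25.9, 23.7 and 23.2 TPM. With Mrps30 and Mrps18a counted as large and Mrps36 left out, large minus small was 0.20 and the summed ratio 2.06. The Mrps18 genes are 3 paralogues of bacterial S18 of which Mrps18b and Mrps18c belong to the small subunit. Mrps18b was the highest at 108 ± 4.53 TPM, Mrps18c stood at 56.9 ± 5.38 and Mrps18a at 48.6 ± 2.19. Their ranges over the 4 libraries show Mrps18b above both others in each library, while those of Mrps18c and Mrps18a overlapped, at 49.8 to 62.8 and 46.0 to 50.4 TPM. On the coding-transcript length, without rescaling, Mrps18a and Mrps18b were near each other at 203 and 209, with Mrps18c at 96.0.

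Members with longer exons had lower TPM. Over the 77 expressed members Spearman's correlation between TPM and exon length was -0.73, beside -0.19 over the 10274 expressed protein-coding genes. It was -0.72 within the large and -0.69 within the small subunit. These values are across genes that share the same libraries, and TPM has the length in its denominator. CPM, which does not, had a correlation of 0.26 with length in the members, beside 0.25 over the expressed protein-coding genes. With the coding-transcript length in place of the exon length, the correlation of level and length was -0.60 in the members and -0.22 in those genes. The 19 members with the shortest exons, 566 to 1170 bases, had a median of 126 TPM and 31.2 CPM, and the 19 with the longest, 4171 to 8631 bases, had 28.0 TPM and 57.5 CPM.

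**Figure D3:**
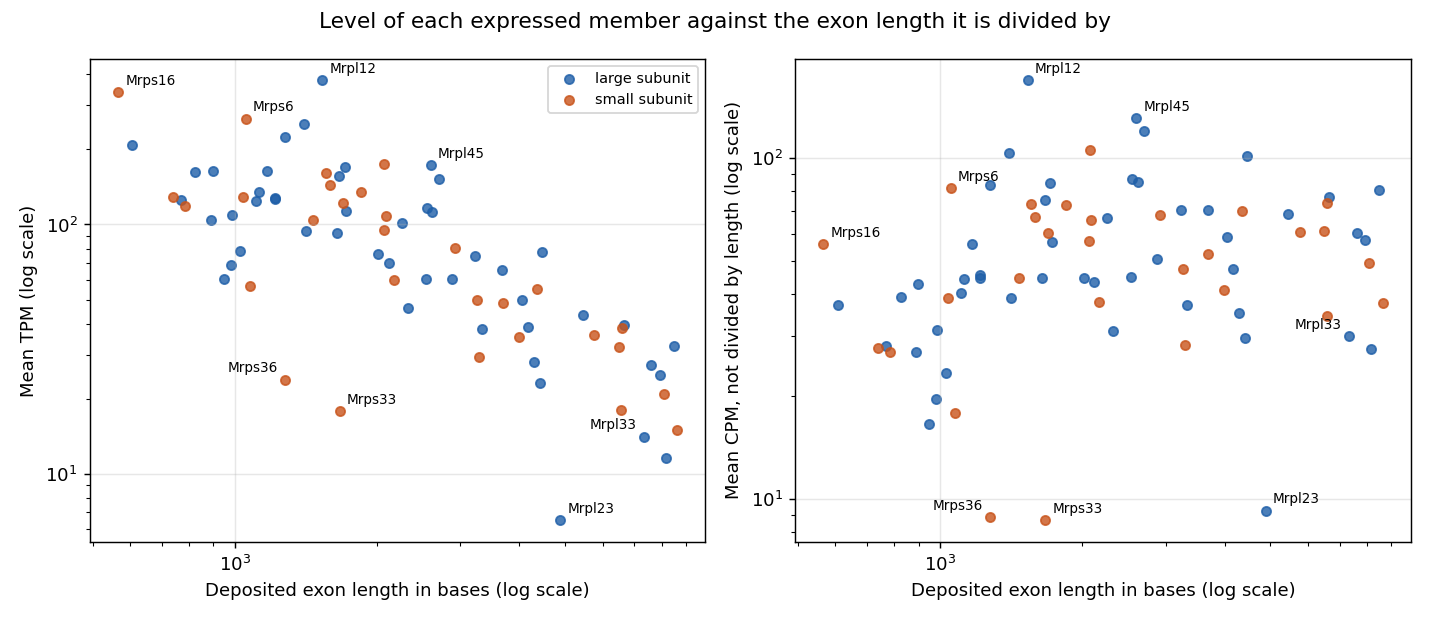
Mean TPM (left) and mean CPM (right) of each expressed member against its deposited exon length, all on log scales, with the large subunit in blue and the small subunit in orange. TPM falls with length, with a Spearman correlation of -0.73, whereas CPM does not, at 0.26.

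The exon length of a gene is that of the merged exons of all its annotated transcripts. In 18 members it was more than 2 times the length of the coding transcript with the longest reading frame. The clearest case was Mrpl33, the counterpart of bacterial L33, with 7326 against 478 bases. It stood at 14.1 TPM on the first length and at 216 on the second. Values on the second length are not rescaled and keep the counts of all exons, so they may be too high. Mrps10 had 8079 against 1018 bases and stood at 21.0 TPM and, not rescaled, 166. Mrpl13 had 7936 against 1223 bases and stood at 24.9 TPM and, not rescaled, 161. The reverse was found in 11 members, whose deposited length from one annotation release was below that of the coding transcript in a later release. Mrps16 had 566 against 2572 bases and Mrpl32, the protein whose maturation by the m-AAA protease precedes ribosome assembly, 768 against 3013 bases. Mrps16 stood at 338 TPM on the deposited and, not rescaled, at 74.4 on the longer length. Counts from the added bases are not among the deposited counts. Of the 10 members with the highest TPM, 6 were also among the 10 highest by CPM and 4 among the 10 highest on the coding-transcript length. Mrpl12 was the highest member on all 3 scales, at 378 TPM, 169 CPM and, not rescaled, 439.9 on the coding-transcript length.

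Members were also described by bacterial descent, without a test, and the order in the large subunit depended on the scale. The 48 members with a bacterial counterpart had a median of 79.1 TPM and the 30 without one 74.0 TPM. In the large subunit the medians were 77.0 TPM for 30 members with and 92.8 TPM for 19 members without a counterpart. In the small subunit they were 92.2 TPM for 18 members with and 35.3 TPM for 11 members without. In CPM the medians were 53.3 with and 44.4 without a counterpart in the large subunit, and 54.0 with and 41.1 without in the small subunit. The order was thus opposite in the subunits in TPM and the same in CPM. The 11 small-subunit members without a counterpart included the low Mrps35, Mrps33, Mrps25, Mrps36, Mrps31 and Mrps22.

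The members varied little among the 4 libraries. The coefficient of variation (CV) of TPM had a median of 5.15% over the 77 expressed members, 5.16% in the large and 5.01% in the small subunit. It was 6.52% over all expressed genes and 5.26% over the protein-coding genes with a mean of at least 10 TPM, which is close to the members' median. Counting error alone would give the members a median CV of 1.91%. The highest library exceeded the lowest by a median of 1.12-fold and by at most 1.30-fold. The CV was under 5% in 34 members, or 44.2%, beside 34.8% of all expressed genes and 46.4% of the protein-coding genes with a mean of at least 10 TPM.

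The steadiest member was Mrps31, a small-subunit protein found only in mitochondria, at 29.4, 29.5, 29.1 and 29.8 TPM and a CV of 1.02%. Mrpl10, Mrpl19, Mrpl49 and Mrpl28 followed with CVs of 1.401%, 1.43%, 1.85% and 2.13%. A CV above 10% was found in 5 members, or 6.49% of those expressed, beside 28.2% of all expressed genes and 10.5% of the protein-coding genes with a mean of at least 10 TPM. Mrps24, the counterpart of bacterial S3, had the highest CV at 11.9%, with 93.2, 113, 117 and 94.0 TPM in replicates 1 to 4, so replicates 2 and 3 lay above the other 2. Mrpl54 at 139.7, 166, 182 and 164 TPM and Mrps30, given above, were lowest in replicate 1. Mrpl33 at 13.7, 15.6, 14.9 and 12.2 TPM was lowest in replicate 4. Mrpl13 at 22.9, 28.3, 25.2 and 22.9 TPM was highest in replicate 2.

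Replicate 2 held the highest value of 33 members and replicate 1 the lowest of 31. As shares these were 42.9% and 40.3% of the expressed members, beside 27.7% and 27.9% of all expressed genes for the same libraries. The shifts were small. The median member stood at -0.02, 0.03, 0.00 and -0.02 in replicates 1 to 4, as log2 of its TPM over its own mean. The summed TPM was 7376, 7589, 7446 and 7374 in replicates 1 to 4. Replicate 2 was thus the highest, and replicates 1 and 4 were nearly equal. The mitochondrial ribosomal RNAs, which the members bind, summed to 933, 1236, 1217 and 1269 TPM in replicates 1 to 4, lowest in replicate 1 and highest in replicate 4. Fragments with several alignments are not in these sums, and the labels do not settle whether RNA was selected by PolyA+. The sums may therefore not follow the true amounts. The 26 assembly factors described below summed to 949, 947, 918 and 945 TPM. In bulk libraries fewer cells of a type and less RNA per cell cannot be told apart.

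**Figure D4:**
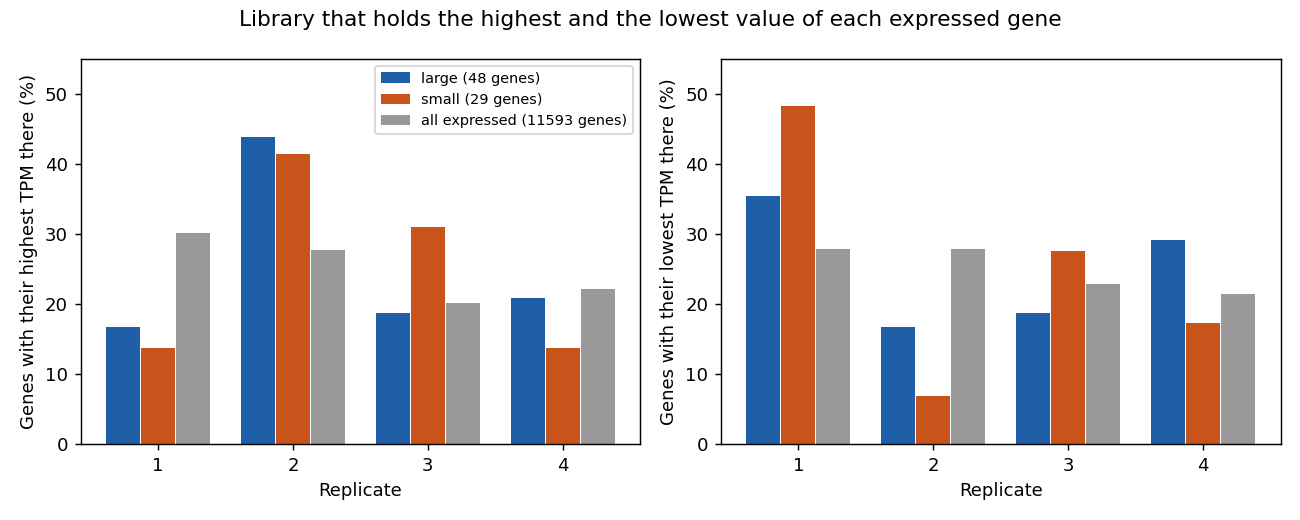
Share of expressed genes whose highest (left) and lowest (right) TPM fell in each replicate, in percent, for large-subunit members, small-subunit members and all expressed genes. Replicate 2 holds the highest value of 42.9% of members against 27.7% of all expressed genes, and replicate 1 the lowest of 40.3% against 27.9%.

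No member passed the test when each replicate was set against the other 3. The test was edgeR's quasi-likelihood test over 12917 genes with Benjamini-Hochberg adjustment at 0.05, and 77 members entered it. It compares libraries, not conditions, and takes the spread of the single library to equal that of the other 3. For replicate 1 against the other 3, 0 of 77 members were called, beside 9 of all genes tested (0.0697%), with 6 members and 9.31% of all genes at an unadjusted p under 0.05. For replicate 2, 0 members and 0 genes (0%) were called, with 5 members and 6.78% of all genes at an unadjusted p under 0.05. For replicate 3, 0 members and 3 genes (0.0232%) were called, and for replicate 4, 0 members and 0 genes (0%). There 0 members and 1 member had an unadjusted p under 0.05, beside 2.31% and 2.49% of all genes. DESeq2's Wald test called 0 members in each of the 4 comparisons, and 18, 28, 8 and 0 genes in all.

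The 3 largest differences of each comparison are given by size, not by nearness to a call. The members nearest to a call were in replicate 1. Mrps30 had a log2 difference of -0.28 (SE 0.09) in replicate 1 against the other 3, with an adjusted p of 0.253 by edgeR's quasi-likelihood test with Benjamini-Hochberg adjustment. Without replicate 4 it was called, as were many other genes. The share of members called in that setting was below the share of all genes tested. Mrpl54 had a log2 difference of -0.29 (SE 0.10) in replicate 1, with a Benjamini-Hochberg adjusted p of 0.323 by edgeR, and Mrps18c one of -0.26 (SE 0.14). In replicate 2 the largest differences were 0.26 in Mrpl13 (SE 0.09), 0.23 in Mrps25 (SE 0.09) and 0.22 in Mrpl50 (SE 0.09). In replicate 3 they were 0.23 in Mrps24 (SE 0.12), 0.22 in Mrpl54 (SE 0.11) and 0.22 in Mrpl57 (SE 0.11). In replicate 4 they were -0.27 in Mrpl33 (SE 0.12), 0.22 in Mrps28 (SE 0.12) and -0.21 in Mrpl40 (SE 0.11). Over the members the median log2 difference was -0.04, 0.05, 0.01 and -0.03 for replicates 1 to 4, beside -0.01, 0.00, 0.00 and 0.00 over all genes tested.

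Many members began next to another gene that runs the other way, which is given as a description of position without a test. An opposite-strand protein-coding gene had its 5′ end within 1000 bases of the 5′ end of 31 members, or 39.7%. Beside this stood 17.8% of the expressed protein-coding genes and 17.6% of the genes named for cytosolic ribosomal proteins. Of these 31, 22 belong to the large and 9 to the small subunit, and the ends lay 26 to 935 bases apart with a median of 137. The distance was taken in either order of the ends. In some pairs the neighbour began inside the member, as Tcp1 did 644 bases into Mrpl18 and Rab6a 891 bases into Mrpl48. The shares include such overlapping pairs. The neighbour was expressed for 28 of the 31 members. One pair joined both subunits, as Mrpl46 and Mrps11 on chromosome 7 start 412 bases apart and overlap. Mrpl46 stood at 94.3 ± 4.89 TPM and Mrps11 at 59.6 ± 2.69 TPM, counted on opposite strands. Other neighbours also act in mitochondria or in protein synthesis. Mrps12 starts 172 bases from Sars2, the mitochondrial seryl-tRNA synthetase, at 36.3 ± 1.46 TPM. Mrpl43 starts 116 bases from Twnk, the helicase of mitochondrial DNA, at 49.7 ± 3.39 TPM. Mrpl49 starts 137 bases from Fau, which encodes a cytosolic ribosomal protein, at 1464 ± 63.6 TPM. These pairs were picked for their known roles after their values were seen. Since Mrpl46 and Mrps11 neighbour each other, the 31 members form 30 distinct pairs. In the other 29 the member had the higher TPM in 21, and Spearman's correlation between the levels of member and neighbour was -0.01 across these 29 pairs of the same libraries. Chromosome 11 held 11 members, or 14.1%, beside 7.53% of the protein-coding genes, and chromosome 17 held 8, or 10.3% beside 4.76%.

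The promoters of the members were searched for motifs of factors known to regulate respiratory genes, and the shares were set beside those of other promoters without a test. A promoter window from RefSeq (GRCm38.p6), with 250 bases before and 50 after the annotated start, was matched by symbol to 69 of the 78 members, and in 53 of them the start lay within 100 bases of the deposited 5′ end. Letters were looked for on both strands, which describes the sequence and does not show that a factor binds. The ETS motif CCGGAAG, read by GABP among many factors, was in 25 members (36.2%), beside 21.2% of 8261 expressed protein-coding genes and 11.2% of all 19965 promoters. The NRF1 motif, GCGC then any base then TGCGC, was in 13 (18.8%), beside 12.0% and 6.08%. The YY1 motif AANATGGCG was in 11 (15.9%), beside 6.19% and 3.10%. At least 1 of these 3 was in 41 members (59.4%), beside 34.7% of the expressed protein-coding genes. Overlaps between the motifs were not removed.

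Other motifs had shares near or below those of the expressed genes. The E-box CACGTG, read by Myc among others, was in 5 members (7.25%), beside 10.7% of the expressed protein-coding genes. The GC box GGGCGG was in 34 (49.3%), beside 67.5%. The CCAAT box CCAAT was in 27 (39.1%), beside 39.8%, and the TATA motif TATAAA in 4 (5.80%), beside 6.14%. The GC content of the windows had a median of 58.3% in the members and 61.3% in the expressed protein-coding genes. Members with an ETS motif had a median of 68.6 TPM and those without one 79.1 TPM, but the subunits differed. The medians were 59.2 TPM with and 94.3 TPM without the motif in the large subunit. They were 108 TPM with and 49.9 TPM without it in the small subunit. These rest on 14 large-subunit and 11 small-subunit members with the motif, and Mrpl53 is among the former. The contrast was taken in TPM only, not on the other length scales.

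**Figure D5:**
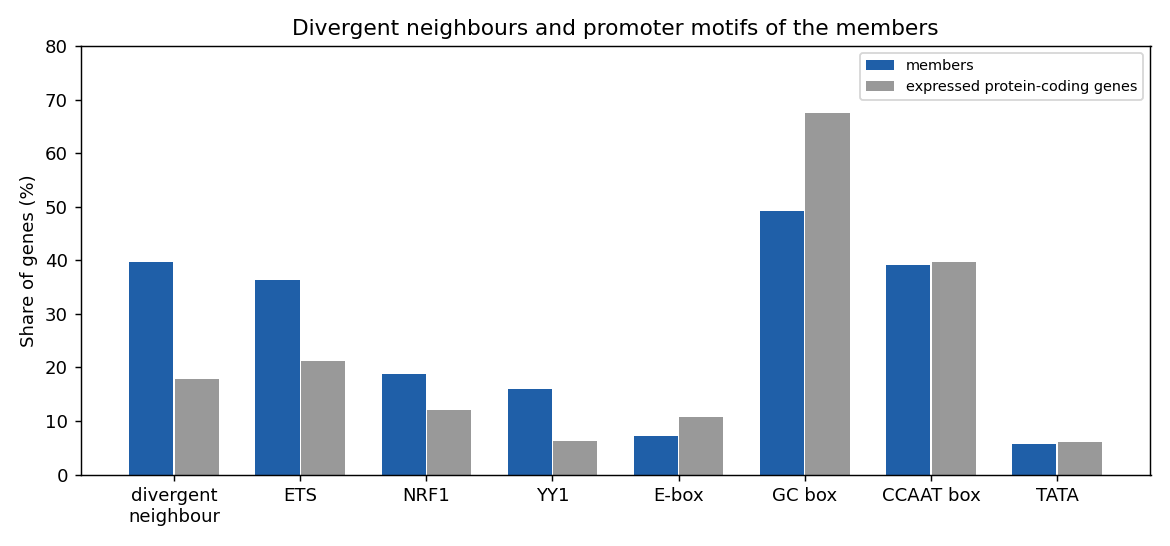
Share of genes in percent with a divergent neighbour within 1000 bases and with each motif in the promoter window. Members are set beside expressed protein-coding genes, and divergent neighbours include those that overlap the gene. The members stand above the other genes for the divergent neighbour (39.7% against 17.8%), ETS, NRF1 and YY1, and below them for the GC box (49.3% against 67.5%).

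The 250 bases before the start are shown for the 5 members that have an ETS, NRF1 or YY1 motif there and no annotated exon of any gene, to let the motifs be seen in their place. Capitals mark the motif, on either strand, and each sequence runs 5′ to 3′ on the strand of its gene. Mrpl34 lies at chr8:71464676-71464925 on the plus strand, with an ETS motif beginning 37 bases before the start. Mrpl45 lies at chr11:97315466-97315715 on the plus strand, with NRF1 motifs, both in reverse, beginning 120 and 38 bases before it. Mrpl52 lies at chr14:54426659-54426908 on the plus strand, with an ETS motif in reverse at 47 bases. Mrpl58 lies at chr11:115403502-115403751 on the plus strand, with an ETS motif at 17 bases. Mrps22 lies at chr9:98601680-98601929 on the minus strand, with an ETS motif at 11 bases.
Mrpl34: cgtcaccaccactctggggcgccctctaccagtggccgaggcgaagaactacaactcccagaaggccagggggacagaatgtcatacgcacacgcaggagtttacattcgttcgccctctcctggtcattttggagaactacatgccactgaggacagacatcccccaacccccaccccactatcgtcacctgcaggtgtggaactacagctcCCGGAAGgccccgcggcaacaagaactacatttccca
Mrpl45: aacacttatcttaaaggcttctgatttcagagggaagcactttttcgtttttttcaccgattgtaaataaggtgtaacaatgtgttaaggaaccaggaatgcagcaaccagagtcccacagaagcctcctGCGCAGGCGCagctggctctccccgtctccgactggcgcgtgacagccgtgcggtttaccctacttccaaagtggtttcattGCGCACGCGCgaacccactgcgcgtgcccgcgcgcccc
Mrpl52: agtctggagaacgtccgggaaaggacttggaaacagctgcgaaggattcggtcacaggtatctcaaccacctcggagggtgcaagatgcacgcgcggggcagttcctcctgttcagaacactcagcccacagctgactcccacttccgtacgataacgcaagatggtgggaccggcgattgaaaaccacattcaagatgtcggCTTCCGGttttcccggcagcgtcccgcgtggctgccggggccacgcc
Mrpl58: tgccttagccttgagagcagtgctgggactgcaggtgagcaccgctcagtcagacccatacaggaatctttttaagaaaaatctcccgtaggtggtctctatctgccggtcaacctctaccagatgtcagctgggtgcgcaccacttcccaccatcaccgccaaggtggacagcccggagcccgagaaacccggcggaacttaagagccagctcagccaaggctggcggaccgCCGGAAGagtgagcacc
Mrps22: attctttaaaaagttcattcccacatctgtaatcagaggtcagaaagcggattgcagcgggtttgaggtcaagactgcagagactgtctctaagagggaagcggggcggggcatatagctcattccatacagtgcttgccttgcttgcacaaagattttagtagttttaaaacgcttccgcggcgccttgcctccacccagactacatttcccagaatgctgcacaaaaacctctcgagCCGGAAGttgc

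All 5 of these genes were expressed, over a range of levels. Mrpl34 and Mrpl45 were among the 10 highest large-subunit members given above. Mrpl52 stood at 124 ± 4.25 TPM. Mrpl58, a peptidyl-tRNA hydrolase related to release factors that became part of the large subunit, stood at 38.3 ± 1.97 TPM, and Mrps22 at 35.3 ± 1.95 TPM.

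The regulators named with these motifs were themselves transcribed, apart from 1 coactivator. Of 9 listed regulators of mitochondrial biogenesis 8 were expressed. The highest were Myc at 543 ± 23.5 TPM, Yy1 at 142 ± 9.41 and the coactivator Pprc1 at 134 ± 10.9. Gabpa, the ETS-family subunit of GABP, stood at 57.2 ± 1.55 TPM and Nrf1 at 40.2 ± 2.98. Ppargc1a, a coactivator of mitochondrial biogenesis best known in muscle and brown fat, was the lowest at 0.00427 ± 0.00509 TPM.

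The other proteins and helpers of the same ribosome were expressed as well, mostly at lower levels than the members. All 5 mitochondrial ribosomal proteins listed under other names were expressed, led by Chchd1 at 229 ± 17.9 TPM, Aurkaip1 at 153 ± 6.51 and Gadd45gip1 at 103 ± 1.97, with Ptcd3 the lowest at 59.1 ± 1.25. The 26 listed factors that assemble the ribosome or modify its RNA were all expressed, with a median of 26.1 TPM. The highest were Rbfa, a factor for the small subunit, at 152 ± 5.74 TPM, Eral1, the chaperone of its ribosomal RNA, at 75.8 ± 5.67 and Rcc1l at 72.1 ± 4.83, and the lowest was the GTPase Gtpbp10 at 5.96 ± 0.242. All 15 translation factors and messenger RNA helpers found were expressed, with a median of 23.2 TPM. The elongation factor Tufm led them at 185 ± 10.9 TPM, followed by Gfm1, the translocase, at 89.5 ± 1.51 and Lrpprc at 78.9 ± 2.22, with Guf1 the lowest at 9.74 ± 0.578.

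The 12 listed genes for mitochondrial transcription and genome upkeep had a median of 22.2 TPM, with the polymerases Polg at 63.4 ± 2.33 TPM and Polrmt at 54.0 ± 6.97 and the helicase Twnk as the highest and Mterf1b at 2.85 ± 0.867 as the lowest. On the mitochondrial genome itself, mt-Rnr1 stood at 593 ± 89.7 TPM and mt-Rnr2 at 570.4 ± 76.3. Of the 13 mitochondrial messenger RNAs 8 passed the threshold, led by mt-Co1 at 6125 ± 401 TPM, mt-Nd1 at 3720.2 ± 281 and mt-Cytb at 3105 ± 48.5. The lowest, mt-Atp8 and mt-Nd4l, had no counts, and mt-Co2, mt-Atp6 and mt-Co3 lay below 1 TPM. The deposited counts leave out fragments with several alignments, so a level near 0 cannot be read as absence and the other levels may be too low. Since the labels name both total RNA and PolyA+, the ribosomal RNA levels may also depend on a selection step.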

How the data were processed

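RNA from regulatory T cells was measured in 4 libraries, all of 1 group. The deposited values are raw whole-number counts per gene, which the authors obtained by featureCounts 1.4.6-p4 from mm10 alignments and GENCODE M13, per the file headers. Those headers also show that both ends of a pair had to align, that counting was reverse-stranded over exons of a gene, and that fragments with several alignments were not asked for. No source used here gives the version of the aligner. Library totals ran from 43821767 to 73819468 counts. Floors and counting CVs cover counting error only, since PCR copies are not separate molecules.

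TPM was computed from the deposited counts and exon lengths, over all 50600 genes. Symbols were matched for 50376 of them by Ensembl identifier in GENCODE M21, which also gave gene types and transcripts, and positions are the deposited ones. The M13 lengths and M21 transcripts come from different releases. Each replicate was set against the other 3 with edgeR 4.0.16 (TMM, filterByExpr for 1 group, quasi-likelihood test, Benjamini-Hochberg at 0.05 over all genes tested). That step was tested on simulated data of 12917 genes for the comparison of replicate 1. The simulated spread followed the trend over genes, without a spread particular to each gene, so recovery in the real data may be lower. Of the genes given a 1.5-fold change it recovered 60%, of those given a 2-fold change 78%, of those given 4-fold 90% and of those given 8-fold 98%, and it made 8 false calls. DESeq2 1.42.0, no filter on low counts, other size factors, lengths, pseudocounts and member lists, and each replicate left out were the alternatives. Levels, CVs and motif shares carry no test. The planned protein lengths and identities were not computed here.

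The text names the 10 highest and 5 lowest members of each subunit by mean TPM, the 5 highest and 5 lowest CVs, members called, the 3 largest differences per comparison, the Mrps18 paralogues, members whose name and place differ, and the 3 highest and the lowest of each companion list. Further genes were named for exon sharing, neighbours and promoters after their values were seen. The members and lists were chosen with earlier results of these data known.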

Additional observations from a re-analysis of the deposited data

Results flagged for a closer look

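In 3 of 82 sets of 4 library values, 1 library lay far from the other 3 relative to the whole range, with Dixon's ratio above its critical value. Chance flags about 1 in 20 such sets, or 4.1 of 82, so the number is no more than chance gives. Mrpl2, a core protein of the large subunit, stood at 148 TPM in replicate 2, against 168 to 171 TPM in the other 3 libraries. Mrpl27, also of the large subunit, stood at 100.4 TPM in replicate 4, against 111 to 113 TPM in the other 3. The small-subunit protein Mrps9 stood at 34.0 TPM in replicate 3, against 36.6 to 37.0 TPM in the other 3.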

How the results depend on the processing

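The count of 77 expressed members was the same under a TPM threshold of 5, in FPKM and without any 1 replicate. The large-minus-small difference of 0.39 stayed between 0.38 and 0.41 without any 1 replicate, with a pseudocount of 0.1, in FPKM and with the 5 members of other names. It became 0.076 with means, 0.20 with Mrps30 and Mrps18a counted as large and Mrps36 left out, and 0.48 with expressed members only. Of the alternatives chosen after seeing the data, CPM reversed it to -0.17 and leaving out members with over 10% of exon bases shared gave 0.62. The coding-transcript length reversed it to -0.0054, within its SD of 0. The summed ratio of 1.82 lay between 1.81 and 1.83 without any 1 replicate and became 2.06 with members moved by place and 1.95 with the coding-transcript length. The median CV of 5.15% lay between 4.51% and 5.12% without any 1 replicate, lowest without replicate 2. Genes called without the filter on low counts were 105, 60, 35 and 16 for replicates 1 to 4 against the other 3, and 18, 28 and 8 for replicates 1 to 3 by DESeq2. Without any 1 replicate they ranged from 23 to 341 for replicate 1, highest without replicate 4, from 3 to 52 for replicate 2, from 16 to 21 for replicate 3 and from 2 to 9 for replicate 4. Members called ranged from 0 to 1 for replicate 1, where Mrps30 was called without replicate 4, and were 0 under every other alternative run. The causes of these changes were not tested. No paired analysis was possible because all libraries belong to 1 group. Depth gave the members a median counting CV of 1.91%, below their spread.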
